A study of Mus musculus with 10 samples.

Results

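Transcripts of 36 genes of testicular macrophages and other leukocytes were followed in whole mouse testis at postnatal day 10. The genes were chosen by name, with no threshold on a measured value, and all 36 were found among the 30719 genes of the count table. Of these, 35 held enough reads to be tested, and Clec7a, with 54 counts over all libraries, did not. The study compared 5 wild-type (WT) mice with 5 FXR-/- mice, which lack the farnesoid X receptor alpha, a nuclear receptor for bile acids encoded by Nr1h4. Both genotypes were labelled as 50% 129sv and 50% C57Bl in strain and as 10 days old, and no other allele or treatment was named. Each library came from an individual mouse, was made from total RNA of frozen testis and was run on 1 shared flowcell. Nothing in the labels names the deleted exons or tells whether WT and FXR-/- mice were littermates.

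Macrophages are the most abundant leukocytes of the testis. They lie between the tubules beside the Leydig cells and around the tubules near the spermatogonia, depend on the growth factor CSF1 and its receptor, and clear dying cells and debris. Many of them carry the mannose receptor and the complement chain genes C1qa, C1qb and C1qc, which are typical of resident tissue macrophages, whereas Ccr2 marks monocytes newly arrived from the blood.

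Most of the macrophage genes stood at similar levels in both genotypes, and 1 gene stood apart. Lair1, an inhibitory receptor of leukocytes that binds collagen, was 3.92-fold lower in FXR-/- testis. Ctss, a lysosomal protease that trims the class II invariant chain, rose 1.24-fold, and Ms4a7, a membrane protein of mature macrophages, rose 1.38-fold. Ccr2 was 1.37-fold lower. These were the only members called by edgeR's quasi-likelihood test at an adjusted p under 0.05, 2 higher and 2 lower of 35, beside 13.9% of all 18559 genes tested, or 6.17% higher and 7.71% lower. The share of called members was therefore near that of all genes. The members' median log2 fold change, FXR-/- over WT, was 0.02, beside 0.01 for all genes tested, with 19 members above 0 and 16 below. Without adjustment, 12 members had a p under 0.05, 8 of them higher, beside 30% of all genes. The CPM of the genotypes (read counts scaled to a common library size) did not overlap for 3 members (Lair1, Ctss and Ptprc), beside 11.6% of all genes. In whole testis, fewer cells of a type and less RNA per cell cannot be told apart.

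**Figure D1:**
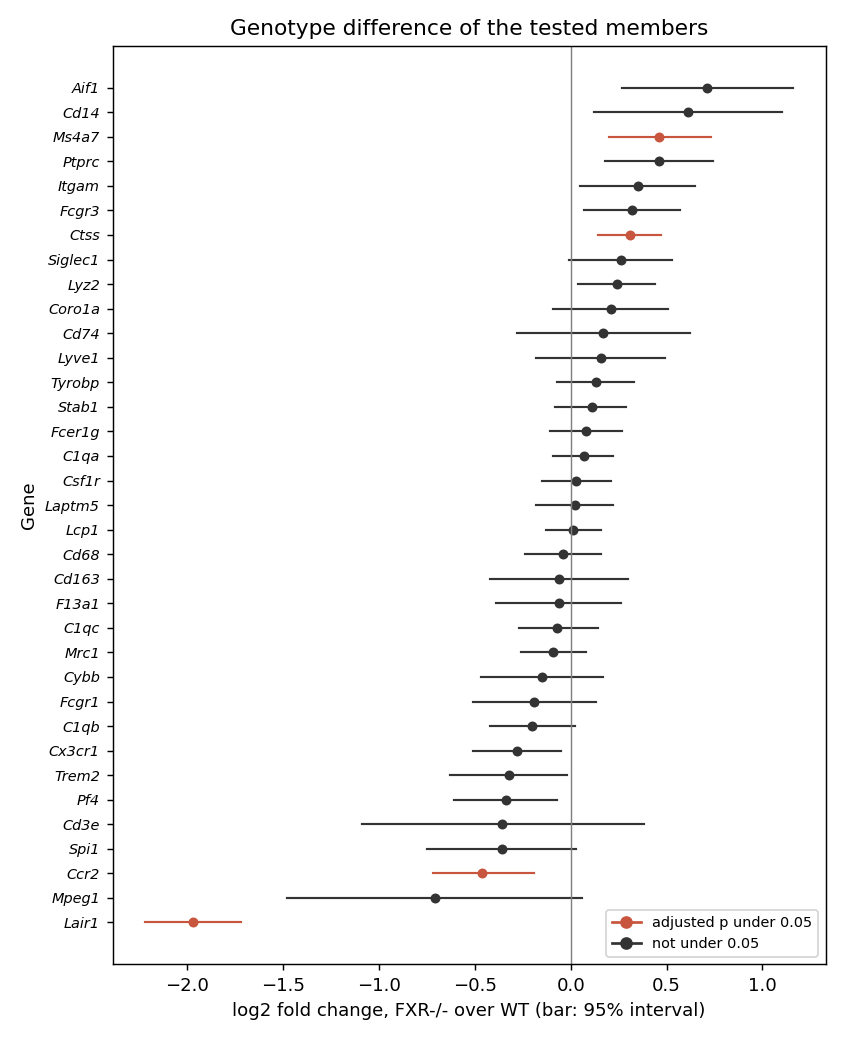
Log2 fold change (FXR-/- over WT) of the 35 tested members, with bars for the 95% interval (1.96 standard errors) and red for an edgeR adjusted p under 0.05. Lair1 lies at -1.97, apart from all other members, which lie between -0.71 and 0.71.

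The 31 members without a call were not shown to be equal. The counts that follow cover all 35 tested members, called ones included. A total of 31 of the 35 tested members differed by less than 1.5-fold in either direction. Beside Lair1, the members beyond it were Aif1 (1.64-fold higher), Cd14 (1.52-fold higher) and Mpeg1 (1.63-fold lower), none of them called. The 95% interval of the log2 fold change lay within 1.5-fold (0.58 on the log2 scale) for 22 members and within 2-fold for 30. Csf1r, the CSF1 receptor on which these cells depend, had a log2 fold change of 0.03 with an interval of -0.15 to 0.21. Lcp1, an actin-bundling protein of leukocytes, had the narrowest estimate, 0.01 with an interval of -0.13 to 0.16.

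The libraries held 32330029 to 35006180 counts in WT and 33037427 to 39655170 in FXR-/- testis. Nr1h4 itself gave 15, 15, 13, 14 and 26 counts in WT libraries 3, 4, 5, 6 and 9 and 8, 9, 11, 11 and 13 in FXR-/- libraries 8 to 12, too few to check the labels firmly. Genes of other cells also differed between the genotypes. Of 12 adipocyte markers 9 were higher in FXR-/-. The summed level of all 12 was 73.0 to 229 CPM in WT and 225 to 1324 CPM in FXR-/- testis, with 1324 in library 9 and 859 in library 10. Of these calls, only those of Cfd and Lpl held in all 18 alternative analyses (other scalings, filters or tests, or libraries left out). The other adipocyte calls were lost without FXR-/- libraries 9 and 10. Of 9 duct epithelium markers 7 were higher (summed level 78.8 to 99.4 CPM in WT, 127 to 184 in FXR-/-), and 6 of 8 Sertoli cell markers were lower (3599 to 4443 CPM against 2333 to 3395). Among these duct and Sertoli calls, those of Krt19, Wt1 and Sox9 held in 9, 7 and 17 of 18 alternatives, and the rest in all 18. Fat also holds macrophages, and the part of these other tissues in the results below was not tested. Without FXR-/- libraries 9 and 10, which held most adipocyte RNA, 0 members were called higher and 1, Lair1, lower, by a fit on fewer mice. Ctss then had a log2 fold change of 0.31, as with all libraries, that of Ms4a7 0.35 (0.46 with all) and that of Ccr2 -0.38 (-0.46 with all).

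Per length of transcript, Lyz2 led the members in WT testis at 21.1 ± 1.74 CPM per kb of exon (SD, n = 5), and encodes lysozyme, which cleaves bacterial walls. It was followed by Mpeg1, a pore-forming protein of phagosomes, at 12.1 ± 8.47 CPM per kb. That spread covers the levels of the genes named next, down to Fcer1g, so the place of Mpeg1 is not firm. Its WT mean was 52.4 CPM beside a median of 35.3 CPM. The complement chains C1qb, at 11.2 ± 0.784, and C1qa, at 9.93 ± 0.267 CPM per kb, came next. Tyrobp, a signalling adaptor, stood at 7.84 ± 0.795 and Pf4, a chemokine of platelets and macrophages, at 6.76 ± 0.921 CPM per kb, whose spreads touch. The complement chain C1qc followed at 5.89 ± 0.573 CPM per kb. Mrc1, the mannose receptor, stood at 5.88 ± 0.234 and Fcer1g, another adaptor, at 5.73 ± 0.371 CPM per kb, within their spread of C1qc. At the low end stood Siglec1 at 0.423 ± 0.0487, Cd163 at 0.371 ± 0.0681, Cd3e at 0.326 ± 0.182, Ccr2 at 0.260 ± 0.0351 and Clec7a at 0.0729 ± 0.0288 CPM per kb, a mixture of genes of resident macrophages, monocytes and T cells. Siglec1 and Cd163 lay within the spread of Cd3e. Lengths here count every annotated exon of each gene, which understates the level of any gene whose transcripts leave out many of them and limits the ranking. The level of Ptprc, 0.168 ± 0.0198 CPM per kb, is understated in this way, as its length is the longest of the members (18313 bases). Every member had reads in all 10 libraries.

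**Figure D2:**
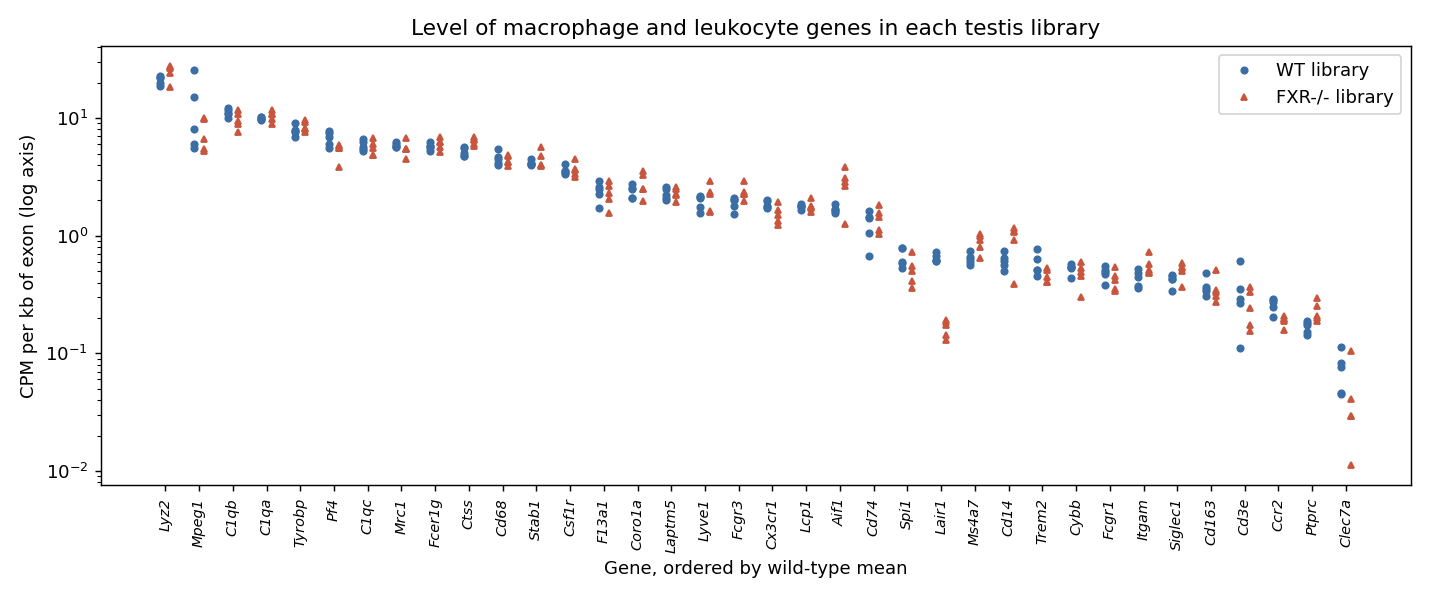
Level of all 36 members in each library, in CPM per kb of exon on a log axis, ordered by the WT mean (blue circles WT, red triangles FXR-/-). Levels run from Lyz2 at the top to Clec7a at the bottom, and Lair1 shows the widest gap between the genotypes.

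Lair1 encodes a receptor with inhibitory motifs in its cytoplasmic tail that dampens leukocyte activation when it meets collagen. It lies on chromosome 7 (ENSMUSG00000055541, GRCm38 4003402 to 4063204, minus strand). Its CPM was 5.45, 4.52, 4.54, 4.64 and 5.06 in WT libraries 3, 4, 5, 6 and 9 and 0.972, 1.39, 1.29, 1.07 and 1.44 in FXR-/- libraries 8 to 12. Every FXR-/- value was thus below every WT value, with a wide gap between them. The means were 4.84 ± 0.404 and 1.23 ± 0.203 CPM (SD, n = 5 each), and the log2 fold change was -1.97 (SE 0.128, edgeR adjusted p = 2.14e-06). The gene was called lower in 18 of 18 alternative analyses, with log2 fold changes of -2.06 to -1.90. The counts behind these levels were 145 to 181 per WT library and 33 to 56 per FXR-/- library.

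The other inhibitory receptors and the ligands of LAIR1 gave calls in both directions, to be read beside the 13.9% called among all genes tested. Of 14 tested genes for inhibitory receptors and their phosphatases, 1 was higher and 1 lower. The lower one was Ptpn11, the phosphatase SHP-2, which went from 209 ± 7.29 to 185 ± 11.1 CPM (log2 fold change -0.17, edgeR adjusted p = 0.0304). Its call was kept in 10 of 18 alternatives. It was lost with library totals only, without a filter on low counts, and without any 1 of WT libraries 3 and 4 and FXR-/- libraries 8, 9, 11 and 12 (largest adjusted p = 0.0828). Ptpn6, the phosphatase SHP-1 (named after its values were seen), stood at 3.66 ± 0.214 CPM in WT and 4.03 ± 0.407 in FXR-/- (adjusted p = 0.368). Among 7 tested collagen and soluble ligand genes, 1 was higher and 1 lower. Colec12, a collagen-domain scavenger receptor, went from 28.1 ± 3.05 to 35.3 ± 2.30 CPM (log2 fold change 0.33, adjusted p = 0.0161). Col17a1, a transmembrane collagen that LAIR1 binds, went from 16.3 ± 1.01 to 11.4 ± 1.25 CPM (log2 fold change -0.51, adjusted p = 0.00298). The calls of Colec12 and Col17a1 held in all 18 alternatives. The abundant fibrillar collagen genes Col1a1 (1162 ± 105 against 1155 ± 253 CPM) and Col3a1 (2296 ± 323 against 2355 ± 406 CPM), named after their values were seen, overlapped between the genotypes.

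Several genes near Lair1 on chromosome 7 also passed the test. Lair1 lies in a cluster of leukocyte receptor genes, and the 500 kb on each side of its start held 44 other genes in the table, of which 26 were tested. Of these, 9 (34.6%) were called, 1 higher and 8 lower, beside 13.9% of all genes tested. The window was placed on Lair1 because of its change, the neighbours share 1 region, and the share is a description without a test. The median log2 fold change of the neighbours was -0.08.

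Receptor genes of this cluster moved in both directions. Oscar, a collagen receptor of osteoclasts and macrophages 447 kb from Lair1, went from 1.997 ± 0.427 to 0.948 ± 0.140 CPM (log2 fold change -1.07, SE 0.173, edgeR adjusted p = 0.0029), with no overlap. Gp6, the collagen receptor of platelets, was below the filter, with 15, 14, 9, 8 and 16 counts in WT and 0, 0, 0, 1 and 1 in FXR-/- libraries. Its counts in WT were low but above those of every FXR-/- library. Pira2, an activating receptor of the paired immunoglobulin-like family, gave 2, 2, 0, 1 and 1 counts in WT and 18, 29, 35, 41 and 30 in FXR-/- libraries (adjusted p = 2.21e-05). It has near-identical copies in the same cluster, so reads may have been split among them and its counts are uncertain. Pirb, its inhibitory partner, went from 1.32 ± 0.276 to 1.89 ± 0.267 CPM and was not called (log2 fold change 0.52, adjusted p = 0.0549).

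The other called neighbours are not leukocyte genes. Eps8l1, a relative of the actin-binding protein EPS8, held 10.6, 2.79, 1.10, 6.97 and 5.30 CPM in WT libraries 3, 4, 5, 6 and 9 and 0.383 to 1.17 CPM in FXR-/- libraries (log2 fold change -2.69, SE 0.516, edgeR adjusted p = 0.00658), so that WT library 5 fell inside the FXR-/- range. The transcript 9430041J12Rik, 57.5 kb from Lair1, went from 6.28 ± 0.359 to 3.32 ± 0.314 CPM (log2 fold change -0.92, adjusted p = 9.75e-05). Its start overlaps that of Ttyh1 on the other strand, and since the use of strand in counting is not given, reads in the overlap cannot be assigned. Ttyh1, a membrane protein gene, went from 412 ± 33.8 to 383 ± 51.2 CPM and was not called (adjusted p = 0.477). Smaller falls with no overlap were called for Tnni3, cardiac troponin I (136 ± 17.2 to 89.0 ± 20.03 CPM), and for Rdh13, Ndufa3, Leng1 and Ppp1r12c (log2 fold changes of -0.42 to -0.22). All 9 calls held in every alternative in which the gene was tested.

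**Figure D3:**
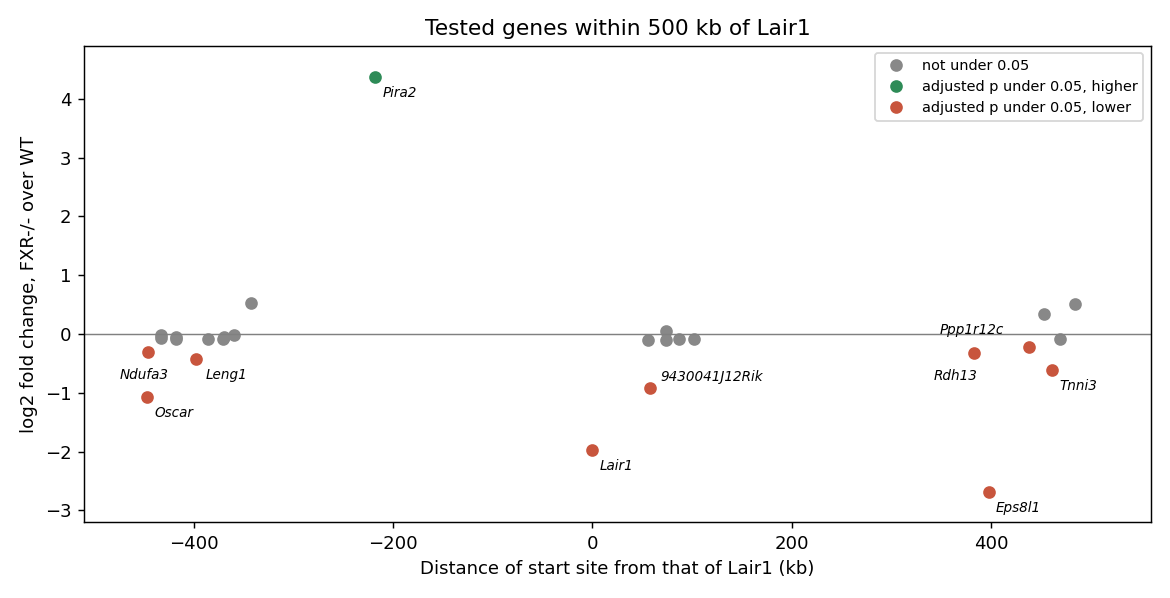
Log2 fold change (FXR-/- over WT) of the 26 tested neighbours and of Lair1, against the distance of each start from that of Lair1 in kb, with red and green for an edgeR adjusted p under 0.05. Lair1 (-1.97) sits between called neighbours and neighbours near 0. The value of Pira2 depends on the small count that edgeR adds, because WT libraries held 0 to 2 counts.

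Ccr2, Ctss and Ms4a7 were the other called members, with adjusted p-values close to the threshold. Ccr2, the receptor for the monocyte-attracting chemokine CCL2, held 1.96, 1.93, 1.69, 1.38 and 1.84 CPM in WT and 1.33, 1.06, 1.27, 1.33 and 1.41 CPM in FXR-/- libraries. Only WT library 6 lay within the FXR-/- range. The log2 fold change was -0.46 (SE 0.136, edgeR adjusted p = 0.0431), and the call was kept in 4 of 18 alternatives. It was lost without any 1 library other than WT library 6, with adjusted p-values of 0.0585 to 0.101, while the log2 fold change stayed between -0.54 and -0.40 over all single libraries left out.

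Ctss held 7.74, 7.54, 6.43, 6.91 and 6.45 CPM in WT and 8.19, 7.88, 9.36, 9.03 and 8.91 CPM in FXR-/- libraries. The genotypes did not overlap, although FXR-/- library 9 lay close to WT library 3. Its log2 fold change was 0.31 (SE 0.0845, edgeR adjusted p = 0.0331). The call was kept in 9 of 18 alternatives and lost without any 1 of WT libraries 5, 6 and 9 and FXR-/- libraries 10, 11 and 12 (adjusted p = 0.0592 to 0.0792), with log2 fold changes of 0.28 to 0.34 over all single libraries left out. Ms4a7 held 2.65, 2.50, 2.82, 2.93 and 3.28 CPM in WT and 2.89, 4.57, 4.13, 3.59 and 4.39 CPM in FXR-/- libraries. FXR-/- library 8 lay within the WT range and the other FXR-/- libraries above it. The log2 fold change was 0.46 (SE 0.137, edgeR adjusted p = 0.0425), kept in 8 of 18 alternatives and lost without any 1 of WT libraries 3, 4, 5 and 6 and FXR-/- libraries 9, 10, 11 and 12 (adjusted p = 0.0645 to 0.0999), with log2 fold changes of 0.40 to 0.55 over all single libraries left out.

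**Figure D4:**
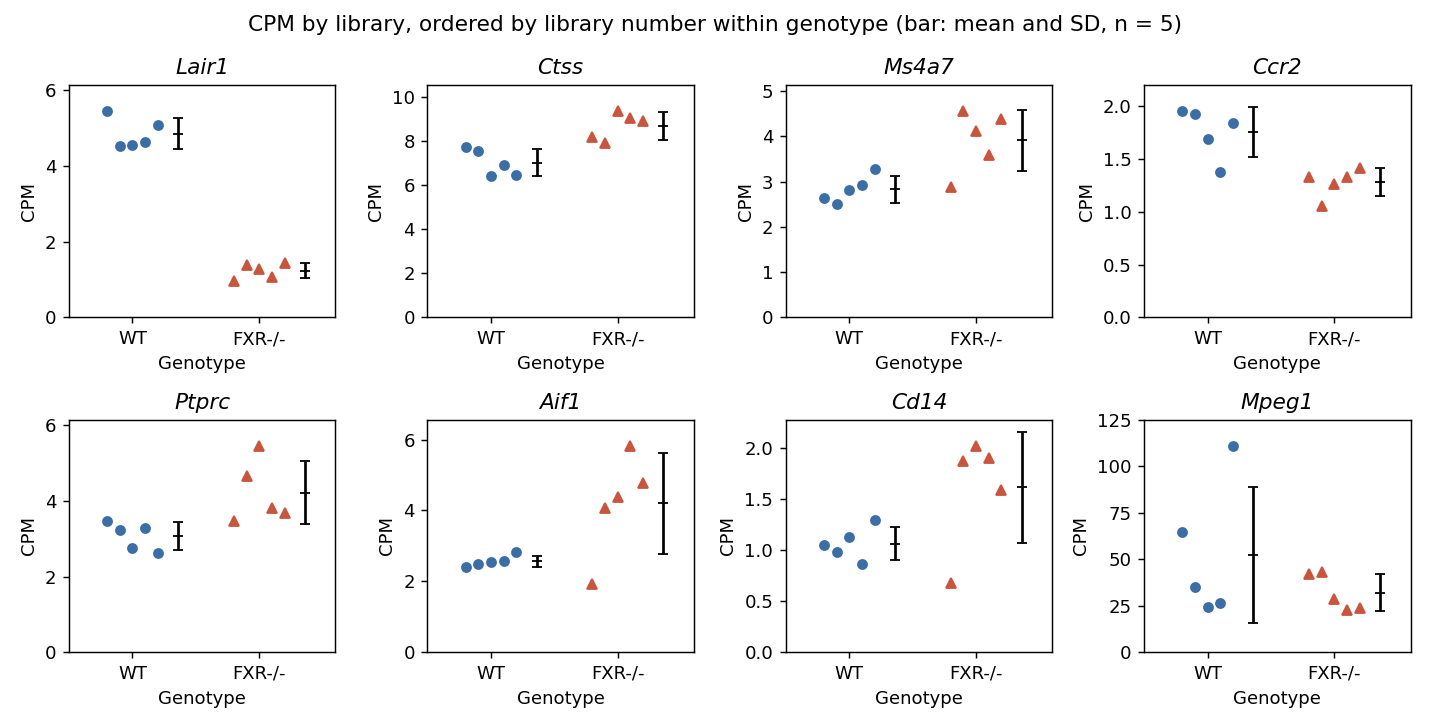
CPM of 8 members in each library, in the order of the library numbers within each genotype, with black bars for the mean and SD (n = 5). Lair1 separates the genotypes widely, Ctss and Ptprc narrowly, and FXR-/- library 8 lies at or below the WT values for Aif1 and Cd14.

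The promoters of the called members are shown for the element bound by PU.1, the myeloid transcription factor that Spi1 encodes. RefSeq promoter windows on GRCm38.p6, from 250 bases before to 50 after the start, were found by symbol for 28 of the 36 members. The letters GAGGAA, the core of that element, were searched on both strands, and GAGGAAGT, which contains them, as a longer form. GAGGAA occurred in the window of 20 of 28 member genes (71.4%), beside 31.3% of 27025 genes with a window, and GAGGAAGT in 4 (14.3%), beside 3.69%. A match describes these letters and is not a measured binding site. In the windows below, read 5′ to 3′ along the gene, capitals mark GAGGAA or its reverse complement. Lair1 has it once, with its first printed base at -26 from the start (chr7:4063155-4063454, minus strand), Ctss at -164 and at +1, the latter within GAGGAAGT (chr3:95526536-95526835, plus strand), Ms4a7 at +44 in the first of its 2 windows (chr19:11336097-11336396, minus strand) and not in the second (chr19:11334646-11334945) and Ccr2 not at all (chr9:124101933-124102232, plus strand). Among the called members, these letters thus occurred in higher and in lower ones, and with so few genes a difference between them was not tested.
Lair1: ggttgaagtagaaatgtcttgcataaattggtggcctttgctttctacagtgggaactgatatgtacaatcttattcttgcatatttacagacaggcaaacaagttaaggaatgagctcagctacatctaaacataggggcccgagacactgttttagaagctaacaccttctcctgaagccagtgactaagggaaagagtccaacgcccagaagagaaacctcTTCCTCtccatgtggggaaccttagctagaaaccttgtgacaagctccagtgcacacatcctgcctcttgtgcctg
Ccr2: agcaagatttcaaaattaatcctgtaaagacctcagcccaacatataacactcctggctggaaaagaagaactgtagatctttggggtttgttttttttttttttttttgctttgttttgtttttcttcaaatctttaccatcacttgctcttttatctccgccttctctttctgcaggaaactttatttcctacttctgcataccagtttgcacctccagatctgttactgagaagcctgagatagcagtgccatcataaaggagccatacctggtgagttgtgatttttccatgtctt
Ctss: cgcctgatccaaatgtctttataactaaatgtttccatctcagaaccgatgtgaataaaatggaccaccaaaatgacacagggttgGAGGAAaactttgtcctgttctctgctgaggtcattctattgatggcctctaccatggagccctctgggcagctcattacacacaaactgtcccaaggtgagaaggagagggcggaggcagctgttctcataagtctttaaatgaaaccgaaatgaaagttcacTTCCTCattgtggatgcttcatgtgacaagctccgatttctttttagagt
Ms4a7: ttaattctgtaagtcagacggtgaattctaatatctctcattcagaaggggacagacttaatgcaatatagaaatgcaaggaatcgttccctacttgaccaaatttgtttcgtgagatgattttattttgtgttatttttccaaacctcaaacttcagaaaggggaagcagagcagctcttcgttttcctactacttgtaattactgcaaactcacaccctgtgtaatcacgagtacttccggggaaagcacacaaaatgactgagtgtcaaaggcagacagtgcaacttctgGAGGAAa

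None of the 3 complement chains was called. C1q binds dying cells and immune complexes and opens the classical complement cascade. C1qa went from 10.3 ± 0.278 to 10.8 ± 1.12 CPM, C1qb from 12.1 ± 0.853 to 10.6 ± 1.78 and C1qc from 11.4 ± 1.11 to 10.9 ± 1.52 CPM (SD, n = 5 each), all with overlap. Their log2 fold changes lay between -0.20 and 0.07, and the smallest edgeR adjusted p was 0.248.

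Among the Fc receptors and adaptors that signal through activating tyrosine motifs (ITAM), 0 of 5 tested members were called, with log2 fold changes from -0.32 to 0.32. The high-affinity IgG receptor Fcgr1 went from 1.25 ± 0.167 to 1.09 ± 0.219 CPM. The low-affinity receptor Fcgr3 went from 3.27 ± 0.388 to 4.08 ± 0.615 CPM, which was not called (edgeR adjusted p = 0.113). The adaptors Tyrobp (5.23 ± 0.530 against 5.72 ± 0.565 CPM) and Fcer1g (5.01 ± 0.325 against 5.29 ± 0.553 CPM) overlapped between the genotypes. Trem2, a lipid-sensing receptor that signals through Tyrobp, went from 2.85 ± 0.613 to 2.28 ± 0.303 CPM (adjusted p = 0.19). Clec7a, the fungal glucan receptor dectin-1, stood at 0.120 to 0.301 CPM in WT and 0.0295 to 0.278 in FXR-/- libraries and was not tested. Downstream of these receptors, 1 of 12 tested genes of ITAM signalling was called. Blnk, an adaptor of B cells and macrophages, rose from 2.15 ± 0.462 to 3.51 ± 1.05 CPM (log2 fold change 0.71, adjusted p = 0.0395), and the call was lost without any 1 of WT libraries 4, 5 and 9 and FXR-/- libraries 11 and 12 (largest adjusted p = 0.0947).

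None of the 7 scavenger and endocytic receptors was called. Stab1, which takes up modified lipoproteins and hyaluronan, had the highest mean CPM over all libraries, with 41.3 to 45.9 in WT and 40.1 to 58.3 in FXR-/- libraries. Mrc1 held 36.1 to 39.6 CPM in WT and 28.5 to 42.9 in FXR-/- libraries. Stab1 and Mrc1 both varied more between FXR-/- mice, with the highest value in FXR-/- library 10. Cd163, the haemoglobin scavenger receptor, went from 2.02 ± 0.372 to 1.94 ± 0.510 CPM, Lyve1, a hyaluronan receptor, from 5.66 ± 0.792 to 6.31 ± 1.63, and Cd68, a lysosomal glycoprotein, from 5.69 ± 0.704 to 5.53 ± 0.488 CPM. Siglec1, a sialic acid receptor of resident macrophages, went from 3.02 ± 0.348 to 3.60 ± 0.593 CPM (edgeR adjusted p = 0.233).

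Cd14, the co-receptor for bacterial lipopolysaccharide, held 1.05, 0.978, 1.13, 0.868 and 1.30 CPM in WT and 0.678, 1.88, 2.03, 1.90 and 1.59 CPM in FXR-/- libraries. Library 8 was the lowest of all 10 and the other FXR-/- libraries were above every WT library. The log2 fold change of 0.61 (SE 0.250) did not pass (edgeR adjusted p = 0.127), but did without FXR-/- library 8 (0.79, adjusted p = 0.00644), and it was 0.39 (adjusted p = 0.406) without FXR-/- libraries 9 and 10. Aif1, the actin-binding protein IBA1 used to stain macrophages, followed the same pattern. It held 2.41, 2.48, 2.54, 2.57 and 2.83 CPM in WT and 1.92, 4.08, 4.38, 5.83 and 4.78 CPM in FXR-/- libraries, again with library 8 lowest and the rest above WT. Its log2 fold change of 0.71 (SE 0.226, adjusted p = 0.0561) passed without FXR-/- library 8 (0.89, adjusted p = 0.00106) and was 0.70 (adjusted p = 0.126) without FXR-/- libraries 9 and 10.

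Ptprc, which encodes CD45, the phosphatase on the surface of all leukocytes, held 3.46, 3.22, 2.76, 3.29 and 2.62 CPM in WT and 3.48, 4.65, 5.47, 3.83 and 3.67 CPM in FXR-/- libraries. The ranges did not overlap, but FXR-/- library 8 was next to WT library 3. The log2 fold change was 0.46 (SE 0.143) and just missed the threshold (edgeR adjusted p = 0.0521), while DESeq2 gave 0.0249 and the fit without FXR-/- library 8 gave 0.0366. It was 0.25 (adjusted p = 0.225) without FXR-/- libraries 9 and 10, which held most adipocyte RNA. Coro1a, an actin regulator of leukocytes, went from 6.66 ± 0.810 to 7.69 ± 1.79 CPM and Lcp1 from 16.8 ± 0.686 to 17.0 ± 1.73 CPM, both with overlap.

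The receptor and the transcription factor that set macrophage identity were not called. Csf1r stood at 20.7 ± 1.58 CPM in WT and 21.1 ± 2.91 in FXR-/- testis. Spi1 stood at 1.78 ± 0.323 and 1.38 ± 0.390 CPM (log2 fold change -0.36, interval -0.75 to 0.03, edgeR adjusted p = 0.247). Of 12 tested genes for CSF1 receptor ligands and myeloid transcription factors 0 were called by edgeR. The ligand Csf1, named after its values were seen, was at 27.8 ± 2.56 CPM in WT and 28.1 ± 2.71 in FXR-/- testis.

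The remaining members of the chemokine and adhesion group were not called. Cx3cr1, the receptor for fractalkine, held 7.80 to 9.15 CPM in WT and 5.55 to 8.68 in FXR-/- libraries (log2 fold change -0.28, edgeR adjusted p = 0.136), and passed without FXR-/- library 10 (-0.38, adjusted p = 0.0327). Its long gene model spans other transcribed genes, among them Wdr48 and Gorasp1, which limits its counts. Pf4 went from 4.87 ± 0.664 to 3.86 ± 0.618 CPM (adjusted p = 0.122) and Itgam, the CD11b integrin chain, from 2.20 ± 0.354 to 2.80 ± 0.521 CPM (adjusted p = 0.146), in opposite directions. F13a1, a transglutaminase carried by resident macrophages, went from 16.2 ± 2.91 to 15.4 ± 3.54 CPM. Small overlaps of gene ends, of Csf1r with Hmgxb3, Coro1a with Bola2 and Stab1 with Nt5dc2, hold reads that cannot be assigned without strand.

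Of the lysosomal, oxidase and pore proteins, only Ctss was called. Lyz2 held 28.6, 29.4, 29.9, 26.1 and 24.6 CPM in WT and 24.4, 35.1, 36.6, 32.1 and 35.6 CPM in FXR-/- libraries, so that library 8 was lowest and the other FXR-/- libraries were above WT. It was not called (log2 fold change 0.24, edgeR adjusted p = 0.139) but passed without FXR-/- library 8 (0.33, adjusted p = 0.0118), and was 0.14 (adjusted p = 0.455) without FXR-/- libraries 9 and 10. Its near-identical copy Lyz1 gave 2 to 9 counts per library, and reads shared by the copies are uncertain. Laptm5, a lysosomal membrane protein, went from 8.64 ± 0.993 to 8.75 ± 0.974 CPM and Cybb, the catalytic chain of the phagocyte oxidase, from 3.05 ± 0.301 to 2.74 ± 0.640 CPM. Among 13 other oxidase and lysosome genes 1 was higher and 2 lower. The lower ones were the proteases Ctsl (1138 ± 78.3 to 876 ± 99.6 CPM, log2 fold change -0.38, adjusted p = 0.00816) and Lgmn (137 ± 5.18 to 117 ± 11.1 CPM, -0.23, adjusted p = 0.0318), and Ctsl is also made by Sertoli cells. The call of Lgmn was lost without any 1 of WT libraries 3, 4, 5 and 9 and FXR-/- libraries 11 and 12 (largest adjusted p = 0.076).

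Mpeg1 was the member that varied most between WT mice. Its CPM was 64.9, 35.3, 24.2, 26.3 and 111 in WT libraries 3, 4, 5, 6 and 9 and 42.3, 43.1, 28.7, 22.7 and 23.6 in FXR-/- libraries 8 to 12. WT libraries 9 and 3 were the highest of all 10, and the other libraries mixed. Its coefficient of variation was 70.1% in WT and 31.1% in FXR-/-, beside a median over the tested members of 11.5% and 16.8%. The log2 fold change of -0.71 was not called (edgeR adjusted p = 0.248) and was -0.23 without WT library 9. Mpeg1 made up 7.92% to 28.3% of the members' summed CPM in WT libraries.

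Cd74, the invariant chain of class II antigen presentation, went from 2.09 ± 0.639 to 2.36 ± 0.556 CPM, and the class II list gave 1 call, higher, among 7 tested genes. That gene was H2-DMb1, which helps load peptides (named after its values were seen, as its mean is under 1 CPM), at 0.332 ± 0.0925 CPM in WT and 0.605 ± 0.119 in FXR-/- testis (log2 fold change 0.86, edgeR adjusted p = 0.0293). The call was lost without any 1 of WT libraries 4, 6 and 9 and FXR-/- libraries 8, 11 and 12 (largest adjusted p = 0.074). Cd3e, a chain of the T cell receptor complex, varied next most after Mpeg1 in WT, with 0.452, 1.09, 1.44, 2.48 and 1.18 CPM in WT and 0.707, 1.36, 0.633, 0.989 and 1.49 CPM in FXR-/- libraries. Its coefficient of variation was 55.7% in WT and 36.9% in FXR-/-, the genotypes mixed, and its interval (-1.09 to 0.38) includes a 2-fold fall. Of 11 tested T cell markers 1 was higher, and its level was under 1 CPM.

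Single FXR-/- mice stood high or low over many members. Of the 35 tested members, FXR-/- library 10 held the highest value of its group in 22 and of all 10 libraries in 16. FXR-/- library 8 held the lowest value of its group in 17 and of all 10 libraries in 12. In WT, library 3 was highest in its group in 17 members. Summed over the members without Mpeg1, WT libraries 3, 4, 5, 6 and 9 held 314, 290.4, 281, 289.8 and 282 CPM and FXR-/- libraries 8 to 12 held 258, 308, 349.7, 290.1 and 285 CPM. The means were 292 ± 13.5 and 298 ± 34.1 CPM (SD, n = 5 each), so the FXR-/- mice spread more widely around nearly the same mean. FXR-/- library 8 was also lowest in the summed Sertoli (2333 CPM) and Leydig cell markers (399 CPM), and library 10 was the next highest to library 9 in adipocyte markers. Leaving out library 8 gave 6 members higher and 1 lower by edgeR, and leaving out library 10 gave 0 higher and 2 lower. Without both, 4 were higher and 2 lower.

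**Figure D5:**
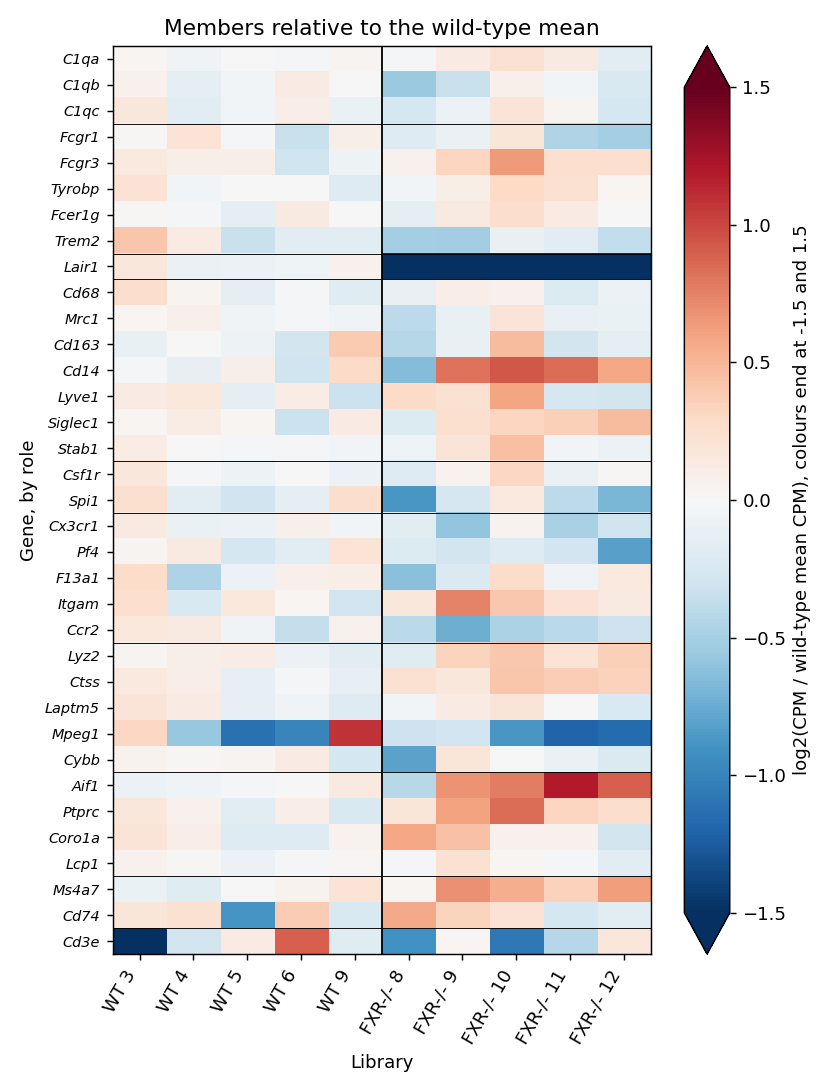
Log2 ratio of each tested member's CPM to its WT mean in every library, with genes grouped by role and colours ending at -1.5 and 1.5. Lair1 lies at the dark blue end in all 5 FXR-/- libraries, library 10 is mostly red and library 8 often blue.

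Macrophage genes outside the members were read from a separate list. Of its 27 tested genes 0 were called higher by edgeR. The widely used marker Adgre1, encoding F4/80 and named after its values were seen, stood at 7.41 ± 0.869 and 6.95 ± 1.02 CPM (adjusted p = 0.647). None of 7 tested monocyte markers, 6 dendritic cell markers, 6 natural killer cell markers, 4 neutrophil markers or 10 chemokine genes was called by edgeR.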

How the data were processed

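Testes were frozen and their total RNA, taken up in Trizol, was turned into libraries with a TruSeq RNA kit, per the labels' protocols. Per the submitters' processing notes, the tools named are TopHat2 2.0.10, Bowtie2 2.1.0, Bowtie, CASAVA and FastQC 0.10.1, and the build is mm10, in roles that the notes leave out. For the counter, the annotation, strand and multiply aligned reads, details were not given in the sources used here. As their main values, the authors deposited raw counts per gene, which entered every test. Values in the same table whose decimal marks had been lost were not used, and 0 columns belonged to other samples.

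Genes were matched by identifier to GENCODE on GRCm38, the same build as mm10. The 507 unmatched genes held 0.2% of counts. Low genes were removed with filterByExpr, libraries scaled with TMM factors, and genotype tested with edgeR 4.0.16 in R 4.3.3 (two-sided quasi-likelihood F-test, adjusted after Benjamini and Hochberg over 18559 genes, threshold 0.05). All adjusted p-values come from this test unless DESeq2 1.42.0 is named. The standard error was the absolute log2 fold change over the square root of F. CPM used the scaled library sizes, and CPM per kb the union of annotated exons. The p-values weigh the difference between the genotypes against the spread between these mice. The edgeR step was checked on simulated data.

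The members and lists were chosen with earlier results of these data known. Named genes were all members, up to 4 called genes of each other list with a mean of at least 1 CPM by smallest p, and genes within 500 kb of the start of the member with the largest change. Alternatives were other scalings (RLE, upper quartile, library totals), other filters, DESeq2, each library left out, and FXR-/- libraries left out in pairs. Samples were grouped by the labelled genotype, and depth is given with the results. Some results picked by this rule are not reported here.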

Additional observations from a re-analysis of the deposited data

Results flagged for a closer look

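In 3 of 72 groups of 5 libraries (each member within each genotype), 1 library lay further from the others than Dixon's 95% limit for a group of that size, and chance gives about 1 in 20. Cd163 was 2.81 CPM in FXR-/- library 10, beside 1.503 to 1.88 CPM in the other FXR-/- libraries. Pf4 was 2.77 CPM in FXR-/- library 12, beside 4.01 to 4.28 CPM. Siglec1 was 2.42 CPM in WT library 6, beside 3.07 to 3.28 CPM in the other WT libraries. None of these 3 genes was called between the genotypes by edgeR.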

How the results depend on the processing

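No paired analysis was possible because the genotypes share only 1 library number, 9, and nothing ties those mice together. Lair1 was called lower in every alternative. The count of members called higher, 2 by edgeR with TMM factors, was 4 with library totals, 0 without a filter on low counts, 4 with DESeq2, 0 without FXR-/- libraries 9 and 10 and 4 without FXR-/- libraries 8 and 10 (a choice made after seeing the data), and ranged from 0 to 6 when single libraries were left out. The count called lower, also 2, was 1 with upper-quartile factors, library totals, no filter or without FXR-/- libraries 9 and 10, and 1 to 2 with single libraries left out. The count over all genes, 2576, ranged from 1427 to 2867 with single libraries left out. The cause of these shifts was not tested. Of the members without a call, 5 were called in at least 1 of the 18 alternatives (Cx3cr1, Lyz2, Aif1, Cd14 and Ptprc) and 26 in none. The sign changed in at least 1 alternative for 11 members, all with a log2 fold change of at most 0.17 in size. Without FXR-/- libraries 9 and 10 the log2 fold change was -0.09 for Csf1r, -0.01 for C1qa, -0.01 for Fcer1g, -0.09 for Laptm5, -0.06 for Lyve1, -0.07 for Lcp1 and -0.07 for Stab1. Without FXR-/- libraries 8 and 10 it was -0.01 for Csf1r, -0.03 for Laptm5, -0.08 for Lyve1 and -0.01 for Cd74. With single libraries left out it ranged from -0.06 to 0.08 for Csf1r, -0.08 to 0.03 for Cd68, -0.16 to 0.05 for F13a1, -0.03 to 0.07 for Laptm5, -0.05 to 0.05 for Lcp1 and -0.24 to 0.05 for Cd163. The widest intervals were those of Mpeg1 (SE 0.391) and Cd3e (SE 0.374) at mean levels of 42.2 and 1.18 CPM, and Clec7a had too few reads to be tested.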

Other observations

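Of the 7 tested class II antigen presentation genes 4 were above 0 in log2 fold change and 3 below, and the 1 called, H2-DMb1, was higher. Among those below, H2-Eb1 (named after its values were seen) held 1.63 to 1.99 CPM in WT and 2.03, 0.870, 0.253, 0.338 and 0.745 CPM in FXR-/- libraries 8 to 12. FXR-/- library 8 was the highest of all 10, and the other FXR-/- libraries were below every WT library. It was not called (log2 fold change -1.08, edgeR adjusted p = 0.103). The related genes H2-Aa and H2-Ab1 went from 1.30 ± 0.297 to 1.03 ± 0.358 CPM and from 2.22 ± 0.504 to 1.56 ± 0.531 CPM, and neither was called.

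Among 8 mast cell markers, Cpa3 and Fcer1a were few in reads. The summed level of all 8 was 23.01 to 29.15 CPM in WT and 17.86 to 28.95 CPM in FXR-/- libraries. Such a sum says little about markers with few reads. Of the 5 tested markers, 4 were above 0 in log2 fold change and 1 below, with a median of 1.38. Cpa3, a mast cell protease named after its values were seen because its mean is under 1 CPM, gave 17, 10, 10, 16 and 5 counts in WT libraries 3, 4, 5, 6 and 9 and 17, 52, 37, 24 and 57 in FXR-/- libraries 8 to 12. It was called higher (log2 fold change 1.5, edgeR adjusted p = 0.0206), but not without WT library 4 or without FXR-/- library 12 (largest adjusted p = 0.0535) or without FXR-/- libraries 9 and 10 together (0.0705). Of 5 tested mast cell markers 2 were higher. The other was Tpsb2, also named after its values were seen, whose call held in 9 of the 17 alternatives that tested it. Fcer1a, a receptor chain of these cells, gave 0 counts in every WT library and 0 to 1 in FXR-/- libraries.

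The neutrophil genes S100a8 and S100a9, also named after their values were seen, gave 57 and 89 counts in WT library 5, and 7 and 6 counts or fewer in each other WT library. In FXR-/- libraries they gave 12 to 22 and 4 to 48 counts.

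In the lists of other cells not described above, 2 of 7 Leydig cell markers (Hsd3b1 and Nr5a1) and 1 of 5 B cell markers were lower. Higher were 2 of 8 germ cell markers (Mael and Asz1), 1 of 12 endothelial markers (Erg) and 1 of 6 erythroid markers (Hba-a1). The call of Hsd3b1 was lost without any 1 of WT library 4 and FXR-/- libraries 8, 9, 11 and 12 (largest adjusted p = 0.0812). It was also lost without FXR-/- libraries 9 and 10 together and without FXR-/- libraries 8 and 10 together. That of Erg was lost without any 1 of WT libraries 3, 4 and 5 and FXR-/- libraries 9 and 12 (0.0656). That of Mael was lost without any 1 of WT libraries 3, 4 and 5 and FXR-/- libraries 8, 9, 11 and 12 (0.09). The calls of Nr5a1, Asz1 and Hba-a1 held in all 18 alternatives. None of 6 lymphatic endothelial markers was called by edgeR.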
